A study of Mus musculus with 2 samples.

Results

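The circadian clock genes described here are *Arntl*, *Clock*, *Per1*, *Per2*, *Per3*, *Cry1*, *Nr1d1*, *Nr1d2*, *Dbp* and *Ciart*. They were chosen by name, and all 10 were among the 16383 genes analysed. The cells were liver non-parenchymal cells (NPCs) of male C57BL/6 mice, captured on the BD Rhapsody platform, in which every transcript receives a unique molecular identifier (UMI). NASH mice were fed from 8 weeks of age, for 6 weeks, on the MCD diet (no methionine, no choline), and control mice on standard chow for the same time. Each library held a pool from 3 mice, so that there was 1 NASH library, 1 control library and no replicate. The hour at which the mice were killed was not given in the sources used here, so that diet and hour of collection cannot be told apart. Only cells with at least 500 UMIs and at least 200 detected genes were kept. From NASH 3710 cells with 9249745 UMIs and from control 4209 cells with 11399278 UMIs passed, at a median of 1654 and 1683 UMIs per cell.

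The circadian clock is a feedback loop that runs in most cells of the body. The proteins of *Arntl* (BMAL1) and *Clock* bind E-boxes and switch on the *Per* and *Cry* genes, whose products close the loop by inhibiting them. A second loop runs through *Nr1d1* and *Nr1d2*, the genes of REV-ERBα and REV-ERBβ, which repress *Arntl*. *Dbp* is an output gene whose protein acts on D-boxes, and *Ciart* (CHRONO) encodes a further repressor of the CLOCK:BMAL1 pair. In mouse liver *Arntl* peaks at another time of day than *Nr1d1*, *Dbp* and the *Per* genes.

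Promoter stretches with such motifs are printed first, since they show which of these genes carry the binding letters of the loop beside their start. RefSeq windows of the build GRCm38.p6, from 250 bases before to 50 bases after a start, were given for 9 of the 10 genes, in 13 windows. *Per2* was not among them. The letters searched, on both strands and without overlaps in these windows, were the E-box CACGTG, the D-box TTATGTAA, the REV-ERB/ROR motif AGGTCA and the cyclic AMP response element TGACGTCA. Of all 32851 windows of this length, 7.15% held the E-box, 0.938% the D-box, 16.3% the REV-ERB/ROR motif and 1.79% the cyclic AMP response element. The E-box was found in 3 of these genes, the D-box in 1, the REV-ERB/ROR motif in 4 and the cyclic AMP response element in 0. These are counts of genes with up to 3 windows each, whereas the shares are per window. AGGTCA is only a part of the REV-ERB/ROR site. Motifs are in capitals below, each strand is that of the gene, and a match describes letters only. The start is that of the window printed. For *Per1* and *Arntl* it is 1 of 2 given and lies inside the gene span stated further below.
*Ciart*, 3 E-boxes that begin 116, 58 and 44 bases before the start, chr3:95882257-95882354, minus strand: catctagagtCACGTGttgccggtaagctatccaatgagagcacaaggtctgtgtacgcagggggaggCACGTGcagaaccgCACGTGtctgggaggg
*Per1*, an E-box 166 and a reversed REV-ERB/ROR motif 137 bases before the start, chr11:69098773-69098827, plus strand: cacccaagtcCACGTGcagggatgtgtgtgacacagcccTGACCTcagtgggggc
*Cry1*, an E-box 60 bases before the start, chr10:85185099-85185124, minus strand: tgccggtggtCACGTGgggtgcatgc
*Per3*, 2 D-boxes that begin 205 and 158 bases before the start, chr4:151044806-151044880, minus strand: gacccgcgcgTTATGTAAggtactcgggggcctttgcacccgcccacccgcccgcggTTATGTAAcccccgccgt
*Arntl*, a REV-ERB/ROR motif 31 bases after the start, chr7:113207532-113207557, plus strand: ggcagaaagtAGGTCAgggacggagg
The windows of *Nr1d1* and *Dbp* held none of the letters searched, which says only that these letters are not in those windows.

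Cells were grouped into classes by marker genes after clustering without the clock genes. The 9 classes with at least 50 kept cells in each library were liver sinusoidal endothelial cells (LSECs, 1570 NASH and 1259 control cells), vascular endothelial cells (VECs, 335 and 158), Kupffer cells (472 and 492), monocytes with monocyte-derived macrophages (359 and 153), conventional dendritic cells (113 and 101), neutrophils (118 and 444), T cells (332 and 553), NK cells with ILC1 (76 and 115) and B cells (194 and 627). UMIs were summed per class and library and given as CPM, that is, scaled to the total of that class and library over the 16383 genes analysed. A diet ratio is the log2 of NASH over control CPM with 0.5 UMI added to each sum. Intervals are exact 95% intervals that cover counting error only, not the spread between mice, and no p-value was computed with 1 library per diet. A gene was counted as measured in a class from 50 UMIs over both libraries, and a change in size was counted from 1.5 times. All classes come from the same 2 libraries, so that agreement between classes is no replication. Neutrophils joined a cluster led by *Cxcr2* (70 NASH and 430 control cells) and one led by *Acod1* (48 and 14). Their class ratios can therefore mix levels with cell makeup.

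Of the 90 combinations of a clock gene and a class, 39 were measured. The NASH level was at least 1.5 times the control level in 14 of them (35.9%), against 7.54% over all genes measured in these classes, and at least 1.5 times below it in 2 (5.13%), against 7.77%. All genes were not matched to the clock genes in UMI count. *Nr1d1* gave 4 of the 14 and *Per1* and *Dbp* 3 each, so that the combinations are not independent. By sign 27 were higher and 12 lower in NASH, with intervals above 0 in 14 and below 0 in 1. No share over all genes was computed for these counts by sign and interval, so that they are description only. The genes did not move as 1 block. *Nr1d1*, *Per1*, *Dbp*, *Per2* and *Per3* were higher in NASH in every class in which they were measured (6, 7, 3, 1 and 1 classes), *Ciart* was lower in each of the 3 classes in which it was measured, and *Arntl*, *Clock*, *Cry1* and *Nr1d2* had both signs. Free RNA from LSECs, treated below, is still in these counts, and without it *Nr1d1* was not higher in every class. The more frequent sign of these 4 was lower for *Arntl* (2 of 3 classes) and *Cry1* (2 of 3) and higher for *Nr1d2* (4 of 6), while *Clock* was even (3 of 6). Of the genes measured in the same classes, 51.6%, 54.4%, 36.1% and 59.0% had that sign at least as often. Nor did the classes move alike. The median log2 ratio of the measured clock genes was 0.84 in Kupffer cells (6 genes), 0.57 in VECs (4), 0.23 in LSECs (9), 0.12 in B cells (5), -0.11 in T cells (6) and -0.15 in monocytes and macrophages (6), while that of all genes measured lay between -0.072 and -0.003 in the 9 classes.

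Read class by class, Kupffer cells held 4 of 6 measured clock genes at least 1.5 times higher in NASH, against 5.16% of all genes measured there, and 0 at least 1.5 times lower, against 3.43%. LSECs held 3 of 9 higher, against 4.57%, and 0 lower, against 5.37%, and VECs 2 of 4 higher, against 7.49%, and 0 lower, against 7.33%. In B cells 2 of 5 were higher, against 6.37%, and 0 lower, against 7.32%, although no interval excluded 0 there. T cells held 1 of 6 higher, against 5.68%, and 1 lower, against 5.84%, and monocytes with macrophages also 1 of 6 higher, against 11.9%, and 1 lower, against 14.8%. Neutrophils held 1 of 2 higher and 0 lower, in a class in which 19.8% of all genes were higher and 19.9% lower by that size. The single gene measured in dendritic cells was past 1.5 times in neither direction, as 6.75% and 6.29% of genes were, and NK cells with ILC1, with 7.81% and 6.52%, had no clock gene with 50 UMIs.

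**Figure D1:**
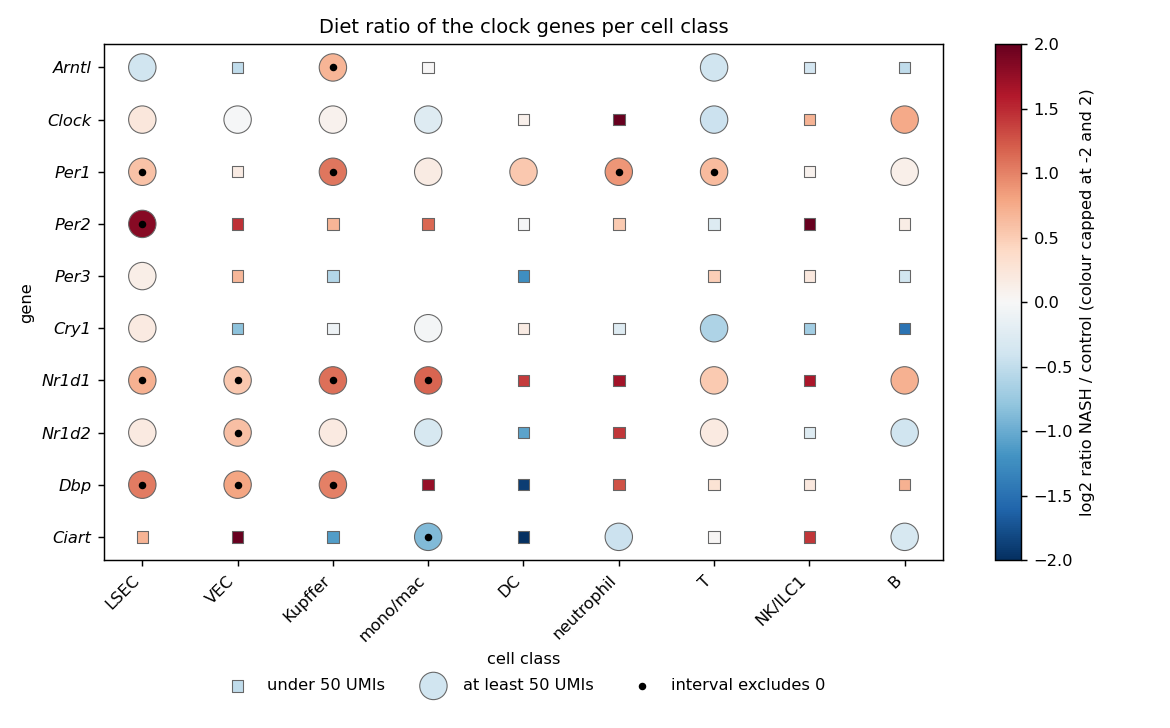
Log2 ratio of NASH to control for each clock gene (rows) in each cell class (columns). Large circles are combinations with at least 50 UMIs, small squares those with fewer, black dots mark circles whose interval excludes 0, colours are capped at -2 and 2, and combinations with no UMI in a library are left blank, so that the rows of *Nr1d1*, *Per1* and *Dbp* are red in every circle, while that of *Ciart* is blue in every circle.

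*Arntl* and *Clock*, the activators of the loop, had no common direction, and of their 9 measured ratios only that of *Arntl* in Kupffer cells had an interval that excluded 0. *Clock* lies on chromosome 5 (76209868 to 76304792, minus strand) and *Arntl* on chromosome 7 (113207465 to 113314126, plus strand) of GRCm38. In LSECs *Clock* had 292 UMIs (133 CPM, 118 to 149) in NASH and 266 UMIs (113 CPM, 99.8 to 127) in control, a log2 ratio of 0.23 (-0.011 to 0.48). *Clock* was higher in 3 and lower in 3 of its 6 measured classes, and each interval held 0. The furthest ratio was 0.76 (-0.16 to 1.59) in B cells, from 18 NASH and 36 control UMIs. *Clock* was highest in LSECs in both libraries. VECs came next at 78.7 CPM (61.7 to 99.0) in NASH, below the LSEC interval, and at 79.5 CPM (56.5 to 109) in control, which overlapped it.

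*Arntl* differed between classes. In LSECs it had 66 UMIs (30.0 CPM) in NASH and 93 UMIs (39.5 CPM) in control, and in T cells 19 UMIs (34.8 CPM) and 44 UMIs (46.7 CPM). These ratios, -0.39 (-0.87 to 0.075) and -0.40 (-1.28 to 0.38), held 0. Clusters within both classes differed. In the LSEC cluster led by *Dll4* *Arntl* had 17 UMIs (21.3 CPM) in NASH and 27 UMIs (44.3 CPM) in control, a ratio of -1.04 (-2.02 to -0.13), against -0.11 (-0.68 to 0.44) in that led by *Lyve1*. In the T cell cluster led by *Nsg2* and *Cd8b1* it had 4 UMIs in NASH and 28 UMIs in control, a ratio of -1.68 (-3.79 to -0.31), against 0.48 (-0.64 to 1.59) in that led by *Cxcr6*. In Kupffer cells *Arntl* went the other way, with 79 UMIs (34.6 CPM, 27.4 to 43.1) in NASH and 68 UMIs (21.6 CPM, 16.7 to 27.3) in control, a log2 ratio of 0.68 (0.20 to 1.17). Summed over both activators, the interval of the Kupffer cells was the only one above 0 with at least 50 UMIs, at 0.29 (0.012 to 0.58). In dendritic cells 6 NASH UMIs of *Arntl* stood against none in control, where a count of 0, taken as under 3 counts, allows up to 5.63 CPM.

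*Nr1d1* was the most abundant of the 10 genes in endothelial cells. It lies on chromosome 11 (98767932 to 98775333, minus strand) and overlaps *Thra* on the opposite strand, and whether strand was used in counting was not stated, so that their reads may not be told apart. In LSECs *Nr1d1* had 2444 UMIs (1112 CPM, 1068 to 1157) in NASH and 1601 UMIs (680.2 CPM, 647 to 714) in control. In VECs it had 1017 UMIs (1097 CPM) in NASH and 370 UMIs (754 CPM) in control. The log2 ratios were 0.71 (0.62 to 0.80) and 0.54 (0.37 to 0.72). Both LSEC clusters showed the difference, at 1043 CPM in NASH against 639.8 CPM in control in one and 1233 against 796 CPM in the other. To compare shares at 1 depth, cells were thinned to 1000 UMIs and shallower cells were left out, which removed 544 of 1570 NASH and 293 of 1259 control LSECs. Of the 1026 NASH LSECs left 59.6% (56.5 to 62.6) and of the 966 control LSECs left 45.2% (42.1 to 48.4) held an *Nr1d1* UMI, against 66.9% and 59.3% of all LSECs before thinning. B cells, which serve as a background, held one in 8.46% (4.30 to 14.6) of NASH and 2.51% (1.26 to 4.45) of control cells at 1000 UMIs, with median depths of 1142.5 and 1120 UMIs against 1229 and 1603 UMIs in LSECs.

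In the 7 compared classes that are not endothelial *Nr1d1* was far lower, between 31.3 and 125 CPM in NASH and between 11.3 and 74.4 CPM in control, and it was higher in NASH by sign in all 7. Kupffer cells had 286 UMIs (125 CPM, 111 to 141) in NASH and 183 UMIs (58.0 CPM, 49.9 to 67.1) in control, a log2 ratio of 1.11 (0.84 to 1.38). Monocytes and macrophages had 123 UMIs (78.5 CPM) in NASH and 17 UMIs (34.2 CPM) in control, a ratio of 1.16 (0.46 to 2.02). T cells had 58 UMIs (106 CPM) in NASH and 70 UMIs (74.4 CPM) in control, and B cells 17 UMIs (71.6 CPM) and 35 UMIs (44.1 CPM), with ratios of 0.52 (-0.013 to 1.04) and 0.72 (-0.23 to 1.57) that held 0. Neutrophils, NK cells with ILC1 and dendritic cells had under 50 UMIs, at 116, 96.0 and 31.3 CPM in NASH against 36.3, 29.8 and 11.3 CPM in control. *Nr1d1* was thus higher in all 6 classes in which it was measured, as were 5.23% of the genes measured there, and at least 1.5 times higher in 4 of them, as were 0.819%. These counts stand before RNA from LSECs is taken off. With it taken off, T cells were left at 43.1 CPM in NASH and 43.4 CPM in control, and B cells with no UMIs. The 2 T cell clusters differed, with 24 UMIs (91.0 CPM) in NASH against 59 UMIs (113 CPM) in control in that led by *Nsg2* and *Cd8b1*, and 34 UMIs (120.4 CPM) against 11 UMIs (26.3 CPM) in that led by *Cxcr6*.

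Free RNA can give UMIs in cells that do not express a gene, and markers of LSECs were therefore counted in the other classes. Of 12 markers, *Fcgr2b*, *Dnase1l3* and *Lyve1* were left out after their values were seen, since other classes express them. The remaining 9, *Clec4g*, *Flt4*, *Gpr182*, *Kdr*, *Oit3*, *Ehd3*, *Bmp2*, *F8* and *Dll4*, summed to 33609 CPM in LSECs of NASH and 36467 CPM in LSECs of control. In the 7 classes that are not endothelial they summed to 1089.8 to 2636 CPM in NASH and 753 to 2418 CPM in control. In NK cells with ILC1 of NASH 1 of the 9 had no UMI, and in the other classes and libraries all 9 had UMIs. Neutrophils differed most, at 2636 CPM in NASH against 778 CPM in control, and the sum was lower in NASH only in B cells, at 2294 against 2418 CPM. If all of these marker UMIs came with RNA of the makeup of LSECs, that RNA carried 18.0 *Nr1d1* UMIs into B cells of NASH, where 17 were counted, and 35.8 into B cells of control, where 35 were counted. In dendritic cells 19.6 UMIs were carried against 17 counted in NASH, and 7.48 against 6 in control. In T cells the carried UMIs were 35.9 of 58 in NASH and 31.2 of 70 in control, and the level left was 43.1 CPM in NASH and 43.4 CPM in control. In Kupffer cells 122 of 286 UMIs were carried in NASH and 59.2 of 183 in control, which left 75.2 against 40.4 CPM, a log2 ratio of 0.90. Monocytes and macrophages kept 39.1 CPM in NASH against 18.4 CPM in control, from 64.0 UMIs carried of 123 and 8.10 of 17. By these levels left, NASH was 2.13 times control in monocytes and macrophages and 0.993 times control in T cells. In B cells no UMIs were left to compare. The subtraction does not touch LSECs and VECs. RNA from VECs, where *Nr1d1* was at 1097 CPM in NASH and 754 CPM in control, was not taken off any class. Its part in the values left was not tested.

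**Figure D2:**
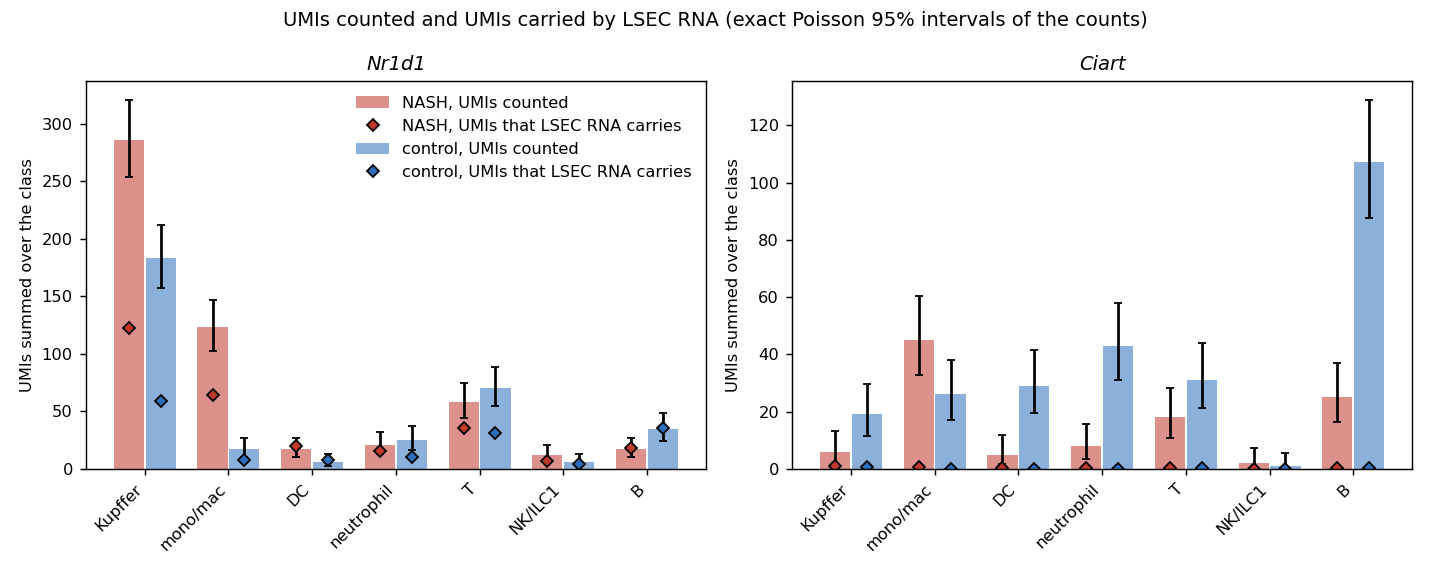
UMIs of *Nr1d1* and *Ciart* counted in the 7 classes that are not endothelial (bars, with exact Poisson 95% intervals) and the UMIs that LSEC RNA would carry at the level of the 9 LSEC markers (diamonds), NASH in red left of control in blue. For *Nr1d1* the diamonds reach the bars in B cells and dendritic cells and stay below the intervals in Kupffer cells, whereas for *Ciart* no diamond is above 1.00 UMI.

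*Nr1d2*, the partner gene of *Nr1d1*, differed less. It lies on chromosome 14 (18204054 to 18239127, minus strand). VECs had 142 UMIs (153 CPM, 129 to 181) in NASH and 49 UMIs (interval 73.9 to 132 CPM) in control, a ratio of 0.61 (0.14 to 1.12). In LSECs it had 280 UMIs (127 CPM) in NASH and 265 UMIs (113 CPM) in control, and in Kupffer cells 133 UMIs (58.2 CPM) and 162 UMIs (51.4 CPM), with ratios of 0.18 that held 0. In T cells, monocytes with macrophages and B cells the ratios were 0.19, -0.34 and -0.40, each with an interval that held 0. LSEC RNA carried at most 14.0 *Nr1d2* UMIs into a class.

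*Dbp*, the gene of a PAR bZIP transcription factor that is among the strongest rhythmic outputs of the liver, was higher in NASH in the 3 classes in which it was measured. It lies on chromosome 7 (45705088 to 45710203, plus strand) and overlaps *Sphk2* on the opposite strand. LSECs had 382 UMIs (174 CPM, 157 to 192) in NASH and 198 UMIs (84.1 CPM, 72.8 to 96.7) in control, a log2 ratio of 1.05 (0.80 to 1.30). VECs had 180 UMIs (194 CPM, 167 to 225) in NASH and 55 UMIs (112 CPM, 84.5 to 146) in control, a ratio of 0.78 (0.35 to 1.26). VECs joined a cluster led by *Bmp4* (260 NASH and 98 control cells) and one led by *Gja5* (75 and 60 cells), and the level of *Dbp* was higher in the first, at 216 against 84.9 CPM in NASH and 134 against 67.5 CPM in control. Within them the ratio of *Dbp* was 0.67 (0.20 to 1.20) and 0.32 (-0.94 to 1.63) and that of *Nr1d1* 0.46 (0.27 to 0.66) and 0.36 (-0.051 to 0.78), so that for both genes the ratio of the whole class was above that of either cluster. Kupffer cells had 35 UMIs (15.3 CPM) in NASH and 24 UMIs (7.61 CPM) in control, a ratio of 1.00 (0.22 to 1.82). Of the genes measured in these 3 classes, 22.4% were higher and 0.511% at least 1.5 times higher in all of them. LSEC RNA carried 19.1 of the 35 Kupffer UMIs in NASH and 7.33 of the 24 in control, and the Kupffer ratio after the subtraction was 0.42. Of the same LSECs thinned to 1000 UMIs, 11.7% (9.79 to 13.8) of 1026 in NASH and 8.07% (6.43 to 9.98) of 966 in control held a *Dbp* UMI, which overlap narrowly, against 17.3% and 12.5% of all LSECs before thinning. B cells at 1000 UMIs held one in 3.08% (0.845 to 7.69) of NASH and 2.74% (1.42 to 4.74) of control cells. LSEC RNA carried 2.82 of their 11 *Dbp* UMIs in NASH and 4.42 of 23 in control, both below the counting interval. For *Dbp* B cells are thus a comparison rather than a background.

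**Figure D3:**
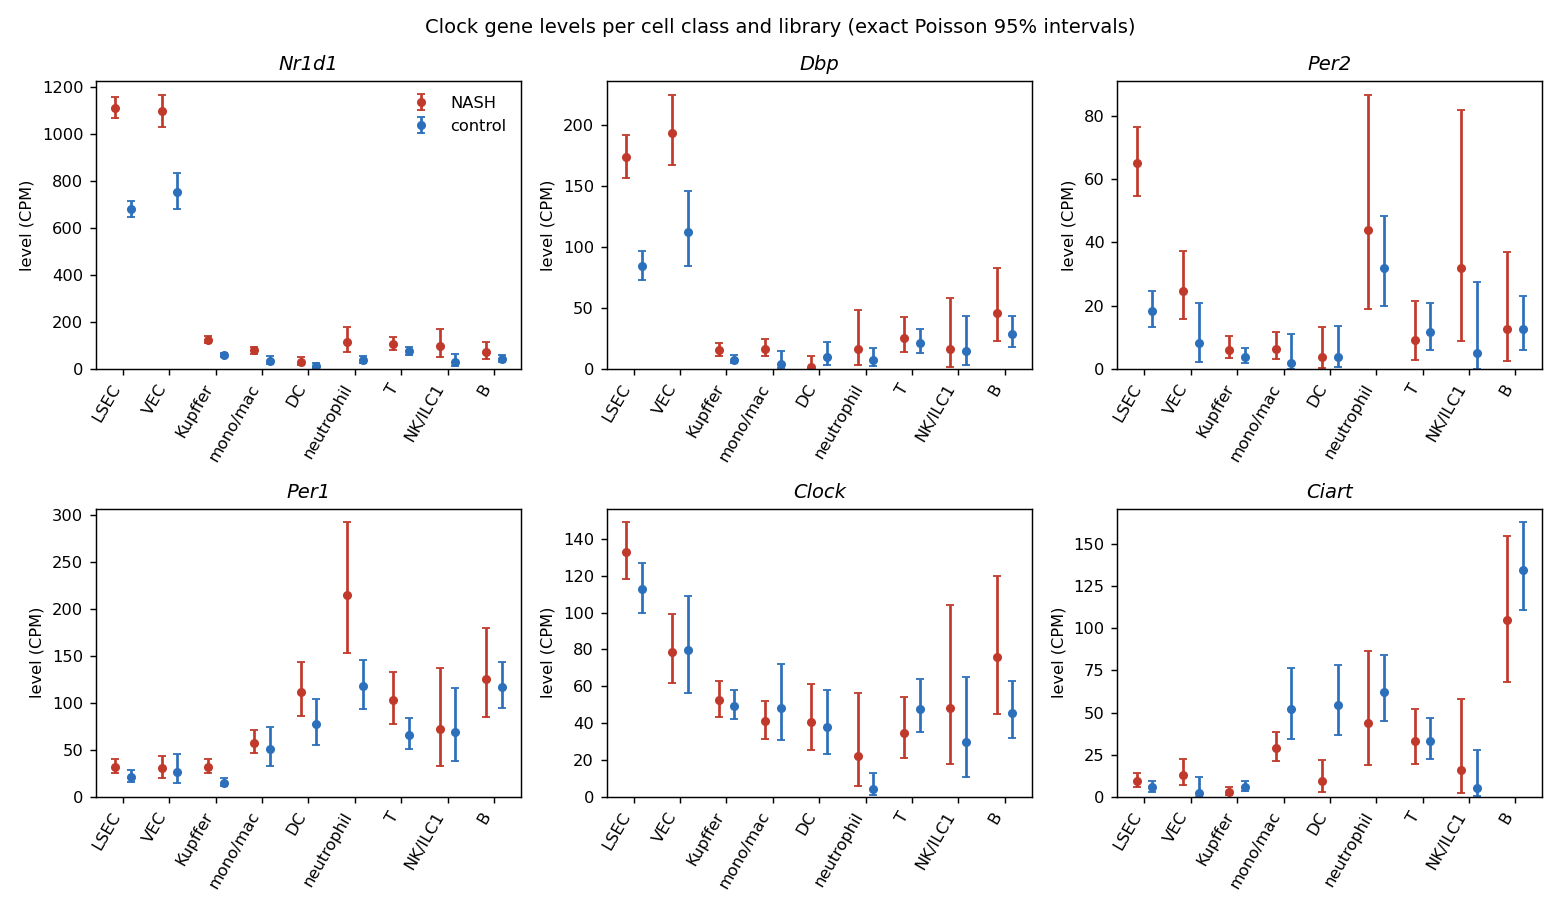
Level in CPM of 6 clock genes in the 9 cell classes, NASH in red left of control in blue, with exact Poisson 95% intervals for counting error. *Nr1d1* and *Dbp* are highest in LSECs and VECs in both libraries, where the NASH intervals lie above those of control, and *Ciart* is highest in B cells.

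*Per2* in LSECs had the highest diet ratio of the 39 measured combinations. Its product holds back CLOCK:BMAL1 together with the CRY proteins, and the gene lies on chromosome 1 (91415982 to 91459324, minus strand). LSECs, the only class with 50 UMIs, had 143 UMIs (65.1 CPM, 54.8 to 76.6) in NASH and 43 UMIs (18.3 CPM, 13.2 to 24.6) in control, a log2 ratio of 1.82 (1.33 to 2.36). VECs had 23 UMIs (24.8 CPM) in NASH and 4 UMIs (8.15 CPM) in control, a ratio of 1.47 (0.056 to 3.60). These were 19 UMIs against 0 in the *Bmp4* cluster and 4 against 4 in the *Gja5* cluster. At 1000 UMIs per cell, 5.95% (4.58 to 7.57) of 1026 NASH LSECs and 1.45% (0.795 to 2.42) of 966 control LSECs held a *Per2* UMI, while B cells held one in 1.54% (0.187 to 5.45) and 0.685% (0.141 to 1.99). Before thinning the LSEC shares were 7.83% and 3.10%. The control share of LSECs thus lay within the interval of B cells. Neutrophils had 8 UMIs (44.0 CPM) in NASH and 22 UMIs (32.0 CPM) in control, where the interval reached down into that of LSECs.

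*Per1*, a *Per* gene that also responds to glucocorticoids and other stimuli within a short time, was measured in 7 classes and was higher in NASH in each, by at least 1.5 times in 3. It lies on chromosome 11 (69095217 to 69109960, plus strand). Of the genes measured in these 7 classes, 4.63% were higher in all, and 3.15% were at least 1.5 times higher in 3 or more. Neutrophils had 39 UMIs (215 CPM, 153 to 293) in NASH and 81 UMIs (118 CPM, 93.4 to 146) in control, a ratio of 0.88 (0.28 to 1.44). Kupffer cells had 72 UMIs (31.5 CPM) in NASH and 47 UMIs (14.9 CPM) in control, a ratio of 1.08 (0.53 to 1.64). In T cells 56 UMIs (103 CPM) stood against 62 UMIs (65.9 CPM), and in LSECs 70 UMIs (31.9 CPM) against 50 UMIs (21.2 CPM), with ratios of 0.64 (0.091 to 1.18) and 0.58 (0.040 to 1.14). Dendritic cells, monocytes with macrophages and B cells had ratios of 0.54, 0.17 and 0.12, and their intervals held 0. *Per1* was lowest in LSECs, VECs and Kupffer cells, so that LSEC RNA carried at most 3.51 of its UMIs into any class. Of NASH neutrophils 70 and of control neutrophils 430 were in the cluster led by *Cxcr2*, and the rest in a cluster led by *Acod1*. Within the *Cxcr2* cluster the ratio of *Per1* was 1.34 (0.65 to 1.95), and within the *Acod1* cluster, with 10 UMIs (120.3 CPM) in NASH and 3 UMIs (118 CPM) in control, it was -0.13 (-1.93 to 2.52). The minus sign in the *Acod1* cluster comes from the 0.5 UMI added to each sum, as the CPM were nearly equal. The T cell clusters differed again, with 39 *Per1* UMIs (148 CPM) in NASH against 32 (61.2 CPM) in control in the cluster led by *Nsg2* and *Cd8b1*, and 17 (60.2 CPM) against 30 (71.6 CPM) in that led by *Cxcr6*.

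*Per3* and *Cry1* were sparse, and no measured ratio of either had an interval that excluded 0. *Per3*, on chromosome 4 (151003652 to 151044665, minus strand) inside *Camta1* on the same strand, was measured only in LSECs, with 38 UMIs (17.3 CPM) in NASH and 37 UMIs (15.7 CPM) in control, a ratio of 0.14 (-0.55 to 0.83). *Cry1*, a repressor of CLOCK:BMAL1 on chromosome 10 (85131700 to 85185064, minus strand), had 39 UMIs (17.7 CPM) in NASH and 37 UMIs (15.7 CPM) in control LSECs, 44 (28.1 CPM) and 14 (28.2 CPM) in monocytes with macrophages, and 16 (29.3 CPM) and 43 (45.7 CPM) in T cells. The T cell ratio was -0.61 (-1.57 to 0.22), which is 1 of the 2 combinations at least 1.5 times lower in NASH. Its clusters differed, with 6 UMIs in NASH and 32 UMIs in control in that led by *Nsg2* and *Cd8b1* (-1.34, -2.98 to -0.15), and 10 and 11 UMIs in that led by *Cxcr6* (0.44, -0.96 to 1.81). In B cells *Cry1* had 3 UMIs (12.6 CPM) in NASH and 32 UMIs (40.4 CPM) in control, under 50 in all.

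*Ciart* was lower in NASH in the 3 classes in which it was measured. It lies on chromosome 3 (95878503 to 95882251, minus strand) and overlaps the antisense gene *C920021L13Rik*. Its level was highest in B cells, with 25 UMIs (105 CPM, 68.1 to 155) in NASH and 107 UMIs (135 CPM, 111 to 163) in control, a ratio of -0.34 (-1.05 to 0.28). Monocytes and macrophages had 45 UMIs (28.7 CPM) in NASH and 26 UMIs (52.3 CPM) in control, a ratio of -0.88 (-1.59 to -0.11). Both of their clusters were lower in NASH by sign. In the larger, 39 UMIs (33.1 CPM) stood against 17 UMIs (44.7 CPM), a ratio of -0.46 (-1.29 to 0.48) that held 0. In the smaller, 6 UMIs (15.5 CPM) stood against 9 UMIs (77.1 CPM), a ratio of -2.28 (-4.09 to -0.66) from under 50 UMIs. Dendritic cells had 5 UMIs (9.22 CPM) in NASH and 29 UMIs (54.5 CPM) in control, a ratio of -2.45 (-4.29 to -1.18) from under 50 UMIs. In neutrophils 8 UMIs (44.0 CPM) stood against 43 UMIs (62.4 CPM), with a ratio that held 0. In T cells the levels were 33.0 CPM in NASH and 32.9 CPM in control. In LSECs and VECs *Ciart* was sparse, with 20 and 12 UMIs in NASH against 13 and 1 UMI in control. Over all kept cells its ratio was -0.70 (-1.0 to -0.40), but B cells made up fewer of the NASH cells, so that this value mixes levels with cell numbers. Of the genes measured in the same 3 classes, 20.1% were lower in NASH in all 3, and 28.1% were at least 1.5 times lower in 1 or more, as *Ciart* was in monocytes with macrophages. LSEC RNA carried at most 1.00 *Ciart* UMI into a class.

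Summed by role, the repressors of the first loop (*Per1*, *Per2*, *Per3* and *Cry1*) were at 132 CPM in NASH and 71.0 CPM in control LSECs, a log2 ratio of 0.89 (0.62 to 1.18). The same sum was at 47.7 CPM in NASH and 31.1 CPM in control Kupffer cells, a ratio of 0.62 (0.21 to 1.03), and at 303 CPM in NASH and 205 CPM in control neutrophils, a ratio of 0.57 (0.087 to 1.02). In the other 6 classes the interval held 0, with ratios between 0.20 and 0.39 in 5 of them and -0.18 in B cells. *Per2* gave 143 of the 290 NASH and 43 of the 167 control UMIs of this sum in LSECs. *Dbp* and *Ciart*, grouped here as outputs, together gave 1.03 in LSECs and 0.85 in VECs, both with intervals above 0, and -2.43 (-4.07 to -1.26) in dendritic cells. *Ciart*, whose protein also represses CLOCK:BMAL1, was not counted in the repressor sum. The 2 genes contributed unequally, with *Dbp* in the endothelial and *Ciart* in the dendritic cells holding most of the UMIs.

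The ratio of E-box targets (*Per1*, *Per2*, *Per3*, *Nr1d1*, *Nr1d2*, *Dbp* and *Ciart*) to activators (*Arntl* and *Clock*) within a library does not depend on the scaling. *Cry1*, whose promoter window also held an E-box, was not counted among these targets. In LSECs 3377 target and 358 activator UMIs in NASH gave a ratio of 9.43 (8.46 to 10.5), and 2207 and 359 UMIs in control one of 6.15 (5.50 to 6.89). In VECs the ratio was 14.6 (11.9 to 18.1) in NASH and 8.70 (6.61 to 11.7) in control. These intervals were apart, and they stayed apart without *Nr1d1*, at 2.61 (2.30 to 2.95) against 1.69 (1.48 to 1.93) in LSECs and at 4.10 (3.28 to 5.18) against 2.21 (1.60 to 3.08) in VECs. In the other 7 classes the intervals overlapped. Kupffer cells were at 2.78 (2.36 to 3.28) in NASH and 2.06 (1.75 to 2.43) in control, and T cells at 5.34 (3.76 to 7.77) and 3.06 (2.40 to 3.93). B cells, dendritic cells and neutrophils had the lower ratio in NASH, at 3.92 against 4.50, 3.36 against 5.05 and 13.5 against 59.7, the last from 6 and 3 activator UMIs.

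**Figure D4:**
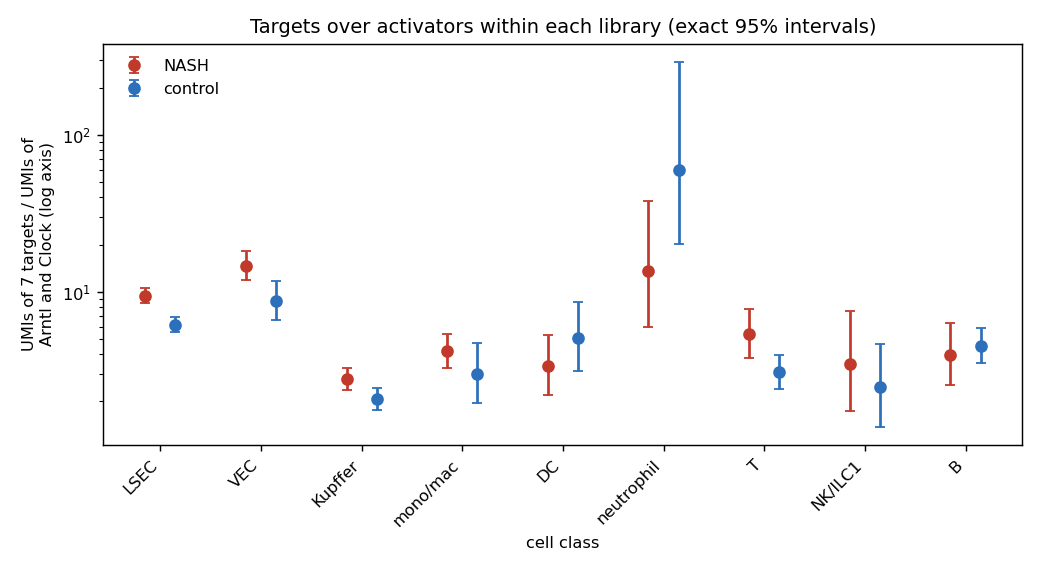
Ratio of the summed UMIs of 7 E-box targets to those of *Arntl* and *Clock* in each class, on a log axis, NASH in red left of control in blue, with exact 95% intervals for counting error. The intervals are apart in LSECs and VECs, where NASH is higher, and overlap in the other 7 classes.

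Of 17 further genes of the clock and its regulators, 79 combinations with a class were measured. In NASH 10 of them (12.7%) were at least 1.5 times higher and 8 (10.1%) at least 1.5 times lower, against 7.54% and 7.77% of all genes. *Hlf*, which like *Dbp* encodes a PAR bZIP factor, had 155 UMIs (70.5 CPM) in NASH and 48 UMIs (20.4 CPM) in control LSECs, and 159 UMIs (172 CPM) and 43 UMIs (87.7 CPM) in VECs. These ratios were 1.78 (1.31 to 2.29) and 0.96 (0.47 to 1.49), while in T cells *Hlf* had 10 UMIs (18.3 CPM) in NASH and 56 UMIs (59.5 CPM) in control, a ratio of -1.64 (-2.84 to -0.72). *Nfil3*, whose protein represses through the D-box to which the PAR bZIP factors bind, was at 74.7 CPM in NASH and 177 CPM in control monocytes and macrophages and at 159.6 CPM in NASH and 394 CPM in control neutrophils, with ratios of -1.25 and -1.28 and intervals below 0. *Bhlhe40*, an E-box repressor, was higher in NASH neutrophils (429 against 92.9 CPM, 2.21) and dendritic cells (526 against 306 CPM, 0.78) and lower in NASH B cells (67.4 against 117 CPM, -0.76), as was its relative *Bhlhe41* in B cells (37.9 against 78.2 CPM, -0.98). The neutrophil values of *Nfil3* and *Bhlhe40*, and of *Nampt* and *Ncor1* below, were not split by cluster. The larger share of the *Acod1* cluster in NASH may enter them.

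*Noct*, the gene of the rhythmic phosphatase nocturnin, was higher in NASH Kupffer cells (70.5 against 36.1 CPM, 0.96) and monocytes with macrophages (97.7 against 34.2 CPM, 1.48). *Nampt*, an enzyme gene of NAD synthesis under clock control, was higher in NASH dendritic cells (485 against 216 CPM, 1.16) and neutrophils (726 against 267 CPM, 1.44). All of these intervals lay above 0. *Csnk1d*, the gene of a kinase that phosphorylates PER proteins, was higher in NASH in all 9 classes, as were 3.79% of the genes measured in every class, but in none by 1.5 times. *Csnk1e*, its relative, was higher in NASH in LSECs (281 against 201 CPM, 0.48) and VECs (251 against 155 CPM, 0.69) and lower in NASH in monocytes and macrophages (96.4 against 143 CPM, -0.57), with intervals that excluded 0. *Ncor1*, the corepressor gene through which REV-ERB proteins act, was lower in NASH in monocytes with macrophages (295 against 467 CPM, -0.66) and neutrophils (545 against 889 CPM, -0.70), again with intervals below 0. *Fbxw11*, a ligase subunit gene for PER proteins, was higher in NASH in monocytes with macrophages at 0.85 (0.21 to 1.60), and *Btrc*, its relative, was at -0.65 in T cells with an interval that held 0. *Cry2*, measured in LSECs alone, and *Hdac3* were past 1.5 times in no class in which they had 50 UMIs, and *Arntl2*, *Npas2* and *Fbxl21* were measured in none.

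Other gene lists were counted beside the clock genes. Of 6 heat shock genes (*Hspa1a*, *Hspa1b*, *Hspa8*, *Hsph1*, *Dnajb1* and *Hsp90aa1*), 26 of 52 measured combinations (50%) were at least 1.5 times higher in NASH and 0 lower, and their sum was higher in NASH in all 9 classes, by 0.22 to 0.73 on the log2 scale. Of 9 glucocorticoid-induced genes (*Fkbp5*, *Klf9*, *Dusp1*, *Mt1*, *Mt2*, *Errfi1*, *Ddit4*, *Cebpd* and *Nfkbia*), 19 of 59 (32.2%) were at least 1.5 times higher and 2 (3.39%) lower, with a higher sum in NASH in 8 of 9 classes and a lower one in neutrophils, at -0.23. Most of the 19 came from *Ddit4*, *Cebpd* and *Mt1*. Among measured classes *Fkbp5* was past 1.5 times only in neutrophils, at 1.27 (0.50 to 2.01), and *Klf9* in none. Of 16 immediate early genes 13 of 128 combinations (10.2%) were at least 1.5 times higher and 15 (11.7%) lower. Summed hepatocyte RNA ranged from 40.0 to 1304 CPM in NASH and from 39.7 to 2584 CPM in control, with 6 of 14 combinations (42.9%) at least 1.5 times higher and 3 (21.4%) lower. Its sum was higher in NASH in LSECs (199 against 106 CPM, 0.90) and Kupffer cells (138 against 80.8 CPM, 0.77) and lower in NASH in neutrophils (-0.98), T cells (-0.80) and monocytes with macrophages (-0.49). Of the nuclear RNAs *Malat1* and *Neat1*, 4 of 18 combinations were at least 1.5 times lower in NASH and 0 higher, but their sum was higher in NASH in LSECs (10115 against 7600.3 CPM, 0.41), VECs (0.14) and Kupffer cells (0.16) and lower in the other 6 classes. The part of dissociation, of stress hormones or of RNA quality in the clock gene values was not tested.

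Genes with the diet ratios nearest to those of a clock gene were sought for the 4 members measured in at least 6 classes. Nearest to *Nr1d1* over 6 classes were *Oit3*, an LSEC marker, *Kif3a* and *Cd59a*, at root mean square distances of 0.27, 0.29 and 0.29 on the log2 scale among 2801 genes. Nearest to *Per1* over 7 classes were the kinase gene *Pim3*, the apoptosis gene *Bcl2l11* and the heat shock gene *Hspa8*, at 0.29, 0.32 and 0.33 among 1615 genes. For *Clock* they were *Pygo2*, *Foxo3* and *Msl3*, at 0.13 to 0.14, and for *Nr1d2* *Dguok*, *Otud5* and *Cnot2*, at 0.068 to 0.15. Of the 923 genes measured in all 9 classes, 35 (3.79%) were higher and 27 (2.93%) lower in NASH in every class. Among the highest lowest ratios were those of *Gm10837*, *Gm10073*, *Dnaja1* and *Pdia3*, at 0.26 to 0.46, and the lowest highest ones to *Igha*, *Neat1*, *Add3*, *H3f3b* and *Eef1b2*, at -3.08 to -0.14. None of the 10 clock genes was measured in all 9 classes.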

How the data were processed

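The deposited tables hold UMI counts per gene and cell, which the authors made with the BD Rhapsody whole transcriptome pipeline and the GRCm38 genome (per the labels and the study's methods) from 1 NASH and 1 control library, each of 3 pooled mice. A label names 10x Genomics, whereas the protocol in the labels names BD Rhapsody. Strand use in counting was not given in the sources used here. The NASH header gives no gene names, so its columns were named from the control header by position. In windows of 41 columns around each of the 10 genes, the totals of both libraries correlated at 0.963 or more in this order and at 0.312 or less when shifted. The libraries shared 21 cell labels and no identical profile. Genes analysed run alphabetically to *Rad54l2*, so that *Rora*, *Tef* and mitochondrial genes were not analysed here. All CPM, cell minima and thinned depths count the UMIs of these genes only.

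Clustering used Seurat 5.3.0 in R 4.3.3 (2000 variable genes, of which 6 clock genes outside the members were left out, 50 components, resolution 0.6), which gave 20 clusters named by marker lists. Doublets were called with Scrublet in scanpy 1.11.5 (3 NASH and 52 control cells, 0.0809% and 1.24%), a rate too low in NASH to rely on, and were kept. Sums, ratios and exact intervals were computed in Python 3.11.15 with scipy 1.17.1 and checked on simulated data. The named genes are the members, the other clock genes measured, and the nearest and the most uniform genes, of which some are not reported here. The members and all lists were chosen with earlier results of these data known.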

Additional observations from a re-analysis of the deposited data

How the results depend on the processing

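The count of combinations at least 1.5 times higher in NASH (14) stayed within 1.5 times of that value under 11 alternatives and under 3 more that were chosen after seeing the data. Of the medians over classes of the role groups, that of *Dbp* with *Ciart* (0.12) was -0.165 and that of *Nr1d1* with *Nr1d2* (0.58) was 0.35 with LSEC RNA taken off. The count at least 1.5 times lower (2) was 7 with a minimum of 20 UMIs, 0 with a minimum of 100 UMIs, 1 in cells with at least 1000 UMIs, 4 by the mean of each cell's CPM, 1 in cells thinned to 1000 UMIs and 4 at clustering resolution 1.0. By sign, 42 combinations were higher and 23 lower with a minimum of 20 UMIs, 3 lower with a minimum of 100 UMIs, and 16 higher and 4 lower in thinned cells, against 27 and 12. The UMI minimum and the thinning change how many combinations are measured, and for the others the cause was not tested. Of 507 values of the 39 diet ratios, 503 stayed within the counting interval, 4 moved out of it and none reversed a ratio past 1.5 times, while 10 values of 6 ratios, each within 0.26 of 0, changed sign. The 4 were *Nr1d1* and *Dbp* in Kupffer cells by the mean of cells (1.51 and 1.90), *Clock* in Kupffer cells (0.82) and *Nr1d1* in LSECs (0.60) in thinned cells. The alternatives chosen after seeing the data left out the *Acod1* cluster of neutrophils, left out cells with a label in both libraries, and took LSEC RNA off the classes that are not endothelial, which gave 12 combinations at least 1.5 times higher and 3 lower. No paired analysis was possible because there is 1 library per diet. Depth limits the sparse genes most, since 51 of 90 combinations had under 50 UMIs.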

Other observations

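Classes with under 50 kept cells in a library were left out of the comparisons. Cholangiocytes (36 NASH and 60 control cells) had 67 *Nr1d1* UMIs (419 CPM) in NASH and 84 (381 CPM) in control, a log2 ratio of 0.14 (-0.35 to 0.62), and 23 *Dbp* UMIs (144 CPM) in NASH and 20 (90.6 CPM) in control. Hepatic stellate cells (15 and 17 cells) had 27 *Nr1d1* UMIs (491 CPM) in NASH and 31 (496 CPM) in control, a ratio of -0.011 (-0.82 to 0.78). Cycling cells (43 and 56 cells) had 29 *Nr1d1* UMIs (106 CPM) in NASH and 5 (14.2 CPM) in control. Plasmacytoid dendritic cells (25 and 55 cells) had 13 *Per1* UMIs (164 CPM) in NASH and 5 (29.2 CPM) in control.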
